A study of Mus musculus with 6 samples.

Results

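The genes described here are 10 adipocyte genes, chosen by name as genes of marrow adipocytes: Adipoq, Cfd and Retn, which encode secreted adipokines, Pparg and Cebpa, which encode the transcription factors of fat cell formation, Plin1 and Cidec, which encode lipid droplet proteins, and Fabp4, Lpl and Scd1, which handle fatty acids. All probe sets whose platform annotation gives exactly 1 symbol, that symbol being a member, were taken, which gave 13 of the 45101 probe sets on the array and covered 8 of the 10 genes. Plin1 and Cfd had no probe set under this rule and are not analysed here. The tissue was calvaria, the upper vault of the skull, taken at an age of 10 days from 13del-tg mice, which carry a Col10a1-13del transgene and are labelled as having bone overgrowth, and from wild-type littermates, called controls, with no transgene or other treatment named for them. RNA came from cryosections of the dissected parietal bones and was amplified and hybridised to 1 array per sample, with 3 biological replicates of each genotype in the labels, which do not say which promoter drives the transgene or whether animals were pooled.

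The deposited columns of 13del-tg 1 and control 1 were identical for 45101 of 45101 probe sets, so that array, called the shared array, is shown apart, and 13del-tg 2 and 3 were set against controls 2 and 3. Col10a1, the transgene's gene, had signals of 15689 and 11584 in 13del-tg 2 and 3, 149.8 and 158.2 in controls 2 and 3, and 152.2 on the shared array, which was therefore as low as the controls although it also bears a 13del-tg label. Xist, the RNA of the inactive X chromosome, had a signal of 15206 on 13del-tg 3 and of 29.9 to 84.5 on the 4 other arrays. The Y-linked Eif2s3y was 11.1 on 13del-tg 3 and 1652 to 1910 on the others. In these sex-linked transcripts 13del-tg 3 thus had the female pattern and the 4 other arrays the male pattern. The compared 13del-tg pair was mixed in this pattern and the control pair was not. The part of sex in the differences was not tested. Values below are the deposited signals, and differences are 13del-tg minus control on the log2(signal + 16) scale with a standard error (SE) from limma. Of 27022 probe sets above a filter on dim signals, 0.037% passed an adjusted p of 0.05, 2 higher and 8 lower in 13del-tg, against 1 and 1 after quantile normalization. The number of arrays, 2 per genotype, limits every value: an exact permutation test of 2 against 2 cannot give a two-sided p below 0.333.

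Fat cells arise when Pparg, a nuclear receptor, and Cebpa, a leucine zipper factor, switch on each other and the genes for lipid uptake, storage and adipokine secretion. Lipoprotein lipase, encoded by Lpl, releases fatty acids from circulating lipoproteins, Fabp4 carries them inside the cell, Scd1 desaturates them, and Cidec joins lipid droplets. In bone marrow, adipocytes and osteoblasts share stromal precursors, and in young mice most marrow is blood-forming, with few fat cells. Several of these genes are also used outside fat: Fabp4 in capillary endothelium and macrophages, Lpl in muscle and macrophages, and Cebpa in myeloid precursors.

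No member probe set passed the test in either direction. Of the 13, 11 lay above the filter, and of these 0 were higher and 0 lower at an adjusted p under 0.05 by limma, where 0.0074% of all kept probe sets were higher and 0.0296% lower. With p unadjusted and under 0.05, 0 of the 11 were higher and 0 lower, where 1.42% of all kept probe sets were higher and 3.72% lower, 5.14% in all. With each array centred on its median, the unadjusted calls over all probe sets were 848 higher and 495 lower, against 384 higher and 1006 lower without centring, so the background's direction depended on the scaling. The 11 member differences ran from -0.50 to 0.29, with 5 above and 6 below 0, where 58.6% of all kept probe sets were below 0, and with a median of -0.05, beside -0.07 over all. Quantile normalization moved the member median to 0.03 and centring to 0.13, while centring moved the median of all probe sets by 0.18. The 13del-tg pair was lower than the control pair without overlap for 2 of the 11 probe sets and higher for 0. Of all kept probe sets 23% were lower and 12.6% higher in this way, 35.6% in all.

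**Figure D1:**
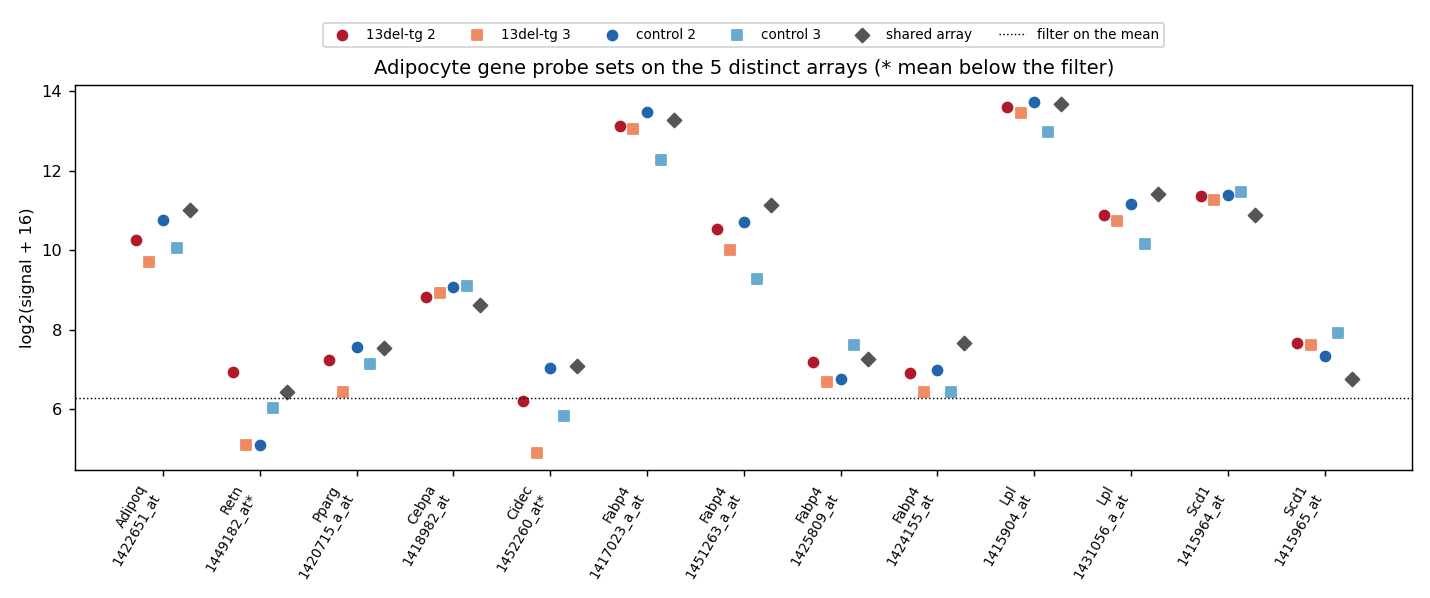
Signal of each of the 13 probe sets on the 5 distinct arrays, as log2(signal + 16), with 13del-tg 2 and 3 in red, controls 2 and 3 in blue, the shared array in grey and the level of the filter dotted. The genotypes overlap for 11 of the 13 probe sets, and the 13del-tg pair is below the control pair only for Cebpa and for Scd1 (1415964_at).

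Among the adipokines, Adipoq, which encodes adiponectin, a hormone made almost solely by fat cells, gave signals of 1212.5 and 822 in 13del-tg 2 and 3, against 1712 and 1052.6 in controls 2 and 3. The groups overlapped, since 13del-tg 2 lay above control 3. The means were 1017 ± 276 in 13del-tg and 1382 ± 466 in controls (SD, n = 2 each). The log2 difference was -0.42 (SE 0.31, 95% interval -1.13 to 0.28, limma adjusted p = 0.883). The shared array, at 2029.3, was the highest of the 5. The size of the Adipoq difference depended on single arrays: it was -0.77 without control 3, -0.70 without 13del-tg 2, -0.15 without 13del-tg 3 and -0.07 without control 2.

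Retn, which encodes resistin, an adipokine of mouse fat, had a mean below the filter. Its signals were 106.3 and 18.5 in 13del-tg 2 and 3, 18.1 and 49.6 in controls 2 and 3, and 69.9 on the shared array. The highest array and the next to lowest were both 13del-tg, so the genotypes overlapped, and the difference in a fit without the filter was 0.46 (SE 0.71). The 2 member probe sets too dim to be kept were those of Retn and Cidec.

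Of the regulators, Pparg had signals of 134 and 71.3 in 13del-tg 2 and 3, 172.6 and 123.8 in controls 2 and 3, and 168.8 on the shared array. The order of the 4 compared arrays was that of Adipoq, with 13del-tg 3 lowest and control 2 highest, and the genotypes overlapped. The log2 difference was -0.50 (SE 0.42, 95% interval -1.48 to 0.47, limma adjusted p = 0.888), and it was -0.90 without 13del-tg 2 and -0.11 without 13del-tg 3. Cebpa behaved differently: its signals were 437.8 and 471.7 in 13del-tg 2 and 3, against 518.4 and 534.7 in controls 2 and 3. The genotypes did not overlap, with 13del-tg lower, but the shared array, at 379.7, was lower than all 4. The Cebpa means were 455 ± 24 in 13del-tg and 527 ± 11.5 in controls (SD, n = 2 each). The log2 difference was -0.21 (SE 0.25, 95% interval -0.79 to 0.38, limma adjusted p = 0.921).

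Cebpa is also a gene of granulocyte precursors. The list of neutrophil and granulocyte markers, among them Mpo and Elane, had a negative difference for 10 of 10 kept genes, with a median of -0.81. Of all 12859 genes, 7557 were negative. Against the control mean, the list's median was -1.59 on 13del-tg 2 and 0.17 on 13del-tg 3. The 13del-tg pair was wholly below the controls for 1 of the 10, and for 3382 of all genes. The list's summed signal was 18535 and 58776 in 13del-tg 2 and 3, against 43342 and 62603 in controls 2 and 3. It was 54416 on the shared array, and none of its genes was at 0. The summed neutrophil signal was lowest on 13del-tg 2, as was Cebpa among the 4 compared arrays, but on the shared array, where Cebpa was lowest of all, the neutrophil sum was above that of control 2. The part of these cells in the Cebpa values was not tested, and in whole bone fewer cells of a type and less RNA per cell cannot be told apart.

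Likeness to Adipoq was measured over the 5 distinct arrays as the root mean square distance between log2 profiles, each centred on its own mean, with 1 probe set per gene (the brightest) and 12859 genes. Among the members Pparg lay nearest, at 0.185, and 1.04% of genes were nearer. Next came Lpl at 0.374 and Fabp4 at 0.417, with 17.5% and 25.8% of genes nearer. Cebpa, at 0.565, and Scd1, at 0.604, were farther from Adipoq than a flat profile, which was at 0.465. The nearest genes of all were Dennd11, Magi3, Zfp189, Ttf1 and Dennd6a, at 0.067 to 0.084. Their signals followed the same order of arrays as Adipoq, with the shared array highest and 13del-tg 3 lowest, and none passed the limma test.

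Because Pparg was the member nearest to Adipoq in profile, the 250 bases before their start sites are shown, from RefSeq on GRCm38.p6, 5′ to 3′ on the plus strand. For Pparg the most downstream of its 3 listed starts is given. Capitals mark the CCAAT box (CCAAT or its reverse complement ATTGG), the TATA box (TATAAA or TTTATA) and the hexamer AGGTCA (or TGACCT) read by nuclear receptors, where these occur.
Adipoq, chr16:23146286-23146535: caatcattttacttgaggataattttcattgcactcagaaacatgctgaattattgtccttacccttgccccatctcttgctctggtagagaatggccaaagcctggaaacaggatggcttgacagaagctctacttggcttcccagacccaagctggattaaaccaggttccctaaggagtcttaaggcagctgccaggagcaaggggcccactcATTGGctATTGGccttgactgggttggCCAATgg
Pparg, chr6:115421816-115422065: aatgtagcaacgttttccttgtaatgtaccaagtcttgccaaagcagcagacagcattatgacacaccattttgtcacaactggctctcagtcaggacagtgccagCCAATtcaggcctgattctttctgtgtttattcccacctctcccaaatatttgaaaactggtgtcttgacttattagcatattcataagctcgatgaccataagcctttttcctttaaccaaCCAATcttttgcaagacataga
The Adipoq window held 3 CCAAT boxes, at 7, 27 and 34 bases before the start as counted to their first plus-strand base, and the Pparg window held 2, at 22 and 144. A CCAAT box was present in 33.8% of 32851 such windows. Neither window held a TATA box, present in 12.4% of windows, or AGGTCA, present in 14% of windows. The windows of the other Pparg starts differed: both held AGGTCA, at 28 and 9 bases before their starts, and the second also held a TATA box, at 29, and a CCAAT box, at 83. Windows were listed for 7 of the 10 genes, and the matches are letters in the sequence, not measured binding.

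Of the lipid droplet genes, Cidec was just below the filter. Its signals were 57.7 and 14.1 in 13del-tg 2 and 3, 115.1 and 40.5 in controls 2 and 3, and 119.6 on the shared array. The order of arrays was that of Adipoq, with overlapping genotypes, and the difference in the fit without the filter was -0.87 (SE 0.66, 95% interval -2.40 to 0.66, limma adjusted p = 0.907). The interval covers both directions.

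The bright probe sets of Fabp4 and both of Lpl had a different pattern, lowest on control 3. The brightest Fabp4 probe set (1417023_a_at) had signals of 8937.7 and 8439.1 in 13del-tg 2 and 3, 11335.3 and 4874.9 in controls 2 and 3, and 9837.4 on the shared array. Control 2 was the highest array and control 3 the lowest, so both 13del-tg arrays lay between the controls. The difference was 0.22 (SE 0.35, limma adjusted p = 0.94), and the next brightest Fabp4 probe set (1451263_a_at) gave 0.29 (SE 0.44) from signals of 1468.7 and 1016.2 in 13del-tg 2 and 3, against 1647.2 and 599.5 in controls 2 and 3. Without control 3 these 2 differences were -0.38 and -0.43, and without control 2 they were 0.83 and 1.01, with unadjusted limma p of 0.0105 and 0.0154 and adjusted p of 0.33 and 0.385. The 2 dimmer Fabp4 probe sets had signals of 70 to 178.9 on the 4 arrays and differences of -0.26 (1425809_at, SE 0.43) and -0.05 (1424155_at, SE 0.43). That of 1424155_at turned positive under quantile normalization (0.15) and centring (0.13), so the probe sets of this gene disagreed in sign.

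Lpl repeated the pattern of bright Fabp4. Its probe set 1415904_at had signals of 12338.1 and 11237.9 in 13del-tg 2 and 3, 13383 and 8049.7 in controls 2 and 3, and 13095.1 on the shared array, a difference of 0.18 (SE 0.25, 95% interval -0.40 to 0.77, limma adjusted p = 0.933). Its other probe set, 1431056_a_at, had 1880.1 and 1696.6 in 13del-tg 2 and 3, 2270.7 and 1120.2 in controls 2 and 3, and a difference of 0.16 (SE 0.32). Control 3 was again the lowest array in both. Without control 3 the 2 differences were -0.18 and -0.34.

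**Figure D2:**
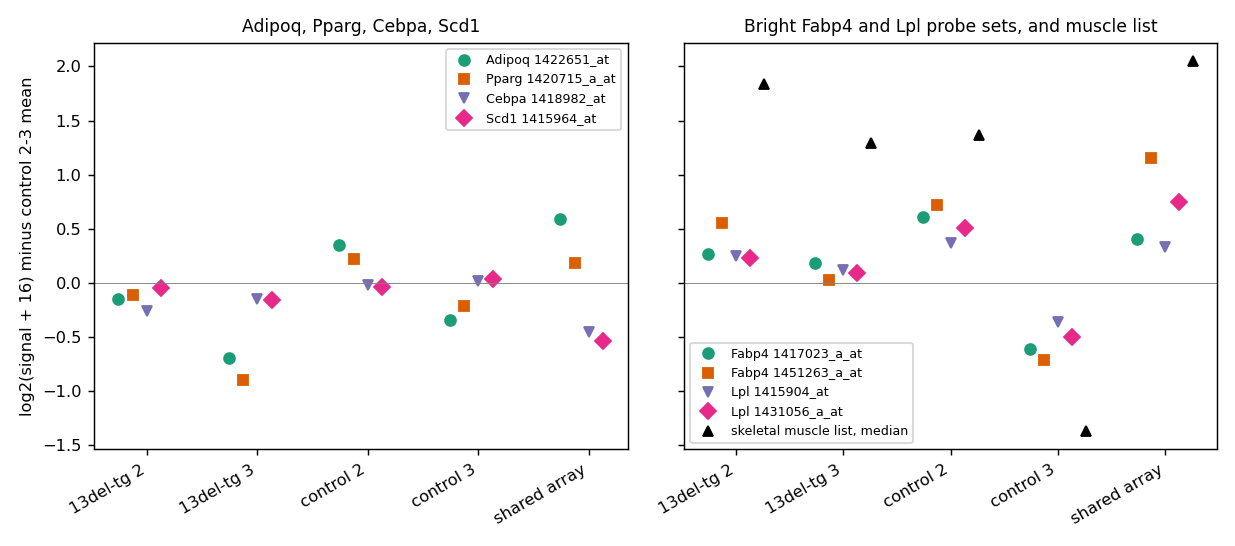
Level of selected probe sets on each array, as log2(signal + 16) minus the mean of controls 2 and 3, for Adipoq, Pparg, Cebpa and Scd1 (left) and for the 2 brighter Fabp4 and both Lpl probe sets beside the median of the skeletal muscle list (right). Control 3 is the lowest array for the Fabp4 and Lpl probe sets and for the muscle list, whereas 13del-tg 3 is the lowest for Adipoq and Pparg.

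Muscle markers, like these probe sets, were lowest on control 3, but the order of the other arrays differed. The muscle sum was highest on 13del-tg 2. Fabp4 1417023_a_at (11335.3) and Lpl 1415904_at (13383) were highest on control 2, and Fabp4 1451263_a_at and Lpl 1431056_a_at on the shared array. The 12 genes of the skeletal muscle list, such as Acta1 and Ckm, had a summed signal of 245157 and 183222 in 13del-tg 2 and 3, against 179079 and 29659 in controls 2 and 3, and 222135 on the shared array, with 11 of 12 differences positive and a median of 1.60. None was at 0 on any array. Control 3 held the least muscle signal and the least signal of the 2 brighter Fabp4 and both Lpl probe sets, while the Fabp4 probe set 1425809_at was highest on control 3 and 1424155_at lowest on 13del-tg 3. The part of muscle in the Fabp4 and Lpl values was not tested. The endothelial list, another source of Fabp4, summed to 17664 and 15402 in 13del-tg 2 and 3, against 19286 and 19210 in controls 2 and 3, and the macrophage list summed to 28501 and 34170 in 13del-tg 2 and 3, against 33778 and 34265 in controls 2 and 3. Their part in the Fabp4 values was not tested either.

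Scd1 encodes stearoyl-CoA desaturase, and its brighter probe set (1415964_at) had the smallest SE of the 13. It gave signals of 2633 and 2437.7 in 13del-tg 2 and 3, against 2645.7 and 2794.4 in controls 2 and 3. The genotypes were separate by a small amount, with 13del-tg lower, and the shared array, at 1869.4, was lower than all 4. The means were 2535 ± 138 in 13del-tg and 2720 ± 105 in controls (SD, n = 2 each), and the difference of -0.10 (SE 0.19, 95% interval -0.55 to 0.34, limma adjusted p = 0.953) became 0.083 after centring. The dimmer Scd1 probe set (1415965_at) had 187.1 and 179.1 in 13del-tg 2 and 3, 146 and 227.3 in controls 2 and 3, 91.8 on the shared array, and a difference of 0.0038 (SE 0.35).

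**Figure D3:**
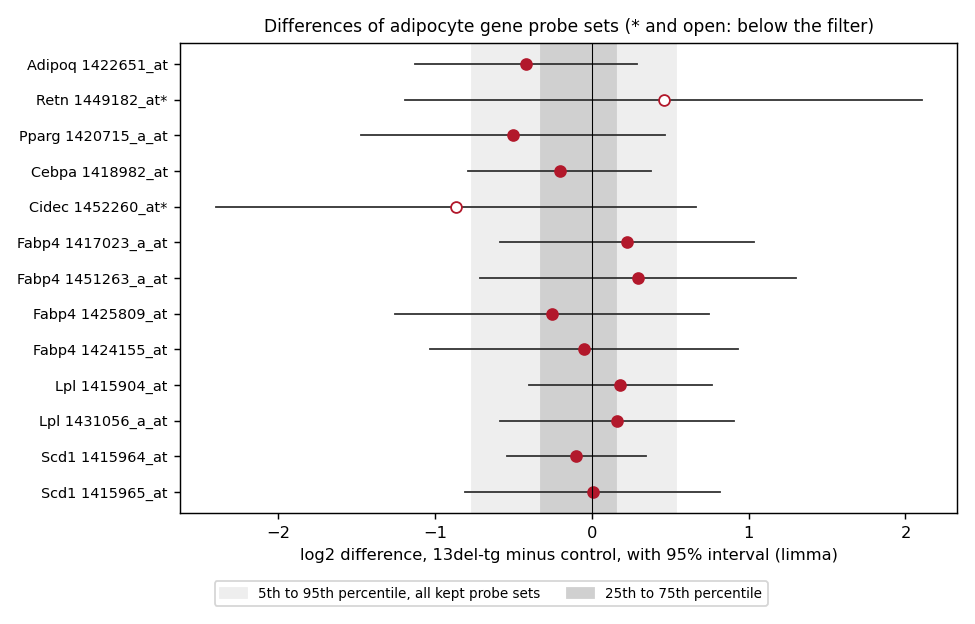
Log2 difference, 13del-tg minus control, of each of the 13 probe sets with its 95% interval from limma, over grey bands for the 25th to 75th and the 5th to 95th percentile of all 27022 kept probe sets. Every interval includes 0, and the 11 kept probe sets (filled) lie between -0.50 and 0.29.

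The shared array was at an extreme for 7 of the 11 kept probe sets. It was the highest of the 5 arrays for 4 of the 11 kept probe sets (Adipoq, 2 of Fabp4 and 1 of Lpl) and the lowest for 3 (Cebpa and both of Scd1), where 27.1% of all kept probe sets were highest and 20.9% lowest on it. For Adipoq it lay 1.01 above the 13del-tg mean and 0.59 above the control mean on the log2 scale. Counting it as a control changed the Adipoq difference to -0.62, and counting it as 13del-tg to -0.08, with adjusted p of 0.937 and 0.987.

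The other genes of fat cells were taken from lists, each gene by its brightest kept probe set. Of 12859 genes so represented, 5302 had a positive and 7557 a negative difference, with a median of -0.07. No gene of the 8 lists that follow passed over all probe sets. They kept 18 adipogenic regulators, 17 lipid droplet, 11 uptake and 19 synthesis genes. Also kept were 12 adipokine, 6 white adipocyte, 7 brown adipocyte and 12 stromal precursor genes, with Cidea and Lepr repeated between lists. With an unadjusted limma p below 0.05, Fitm1 and Esm1 were higher and Cidea, Acly, Adig and Ucp1 lower. Of all 12859 genes, 198 were higher and 602 lower in this way.

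The largest differences were in genes of brown fat. Ucp1, which encodes the uncoupling protein that marks brown adipocytes, had signals of 268.4 and 13.1 in 13del-tg 2 and 3, against 4285.8 and 845.1 in controls 2 and 3, and 2170.7 on the shared array. The genotypes did not overlap, with 13del-tg lower, and the shared array was between the controls. The log2 difference was -4.40 (SE 1.04), with an unadjusted p of 0.00286 and an adjusted p of 0.581 by limma. The size was -4.95 with a pseudocount of 1 and -3.63 with 64, since 13del-tg 3 was near background, and it ran from -6.05 without 13del-tg 2 to -2.76 without 13del-tg 3, the array that differed in sex-linked transcripts.

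Cidea, which encodes a lipid droplet protein of brown adipocytes related to that of Cidec, had signals of 198.9 and 169.4 in 13del-tg 2 and 3, against 1771.1 and 363.5 in controls 2 and 3, and 1216.5 on the shared array. The groups did not overlap, and the shared array again lay between the controls. The difference was -2.04 (SE 0.62, unadjusted p = 0.011, adjusted p = 0.874 by limma), and it was -0.93 without control 2 and -3.16 without control 3, where its adjusted p was 0.0372 with 1 control array left. Otop1, a brown fat gene below the filter that is named here after its values were seen, had 14.1 and 29.3 in 13del-tg 2 and 3, 133.2 and 87 in controls 2 and 3, and 95.3 on the shared array.

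The brown adipocyte list as a whole did not move one way. Of 7 kept genes 3 were positive and 4 negative, with a median of -0.03 and a summed signal of 11739 and 8215 in 13del-tg 2 and 3, against 16894 and 2999 in controls 2 and 3. Cox8b and Cox7a1, subunits of mitochondrial cytochrome oxidase shared by brown fat and striated muscle, had differences of 1.44 (SE 0.85) and 1.23 (SE 0.79). Cox8b had signals of 7366.9 and 5609.8 in 13del-tg 2 and 3, against 7451.8 and 734.7 in controls 2 and 3. It was low on control 3, as was the muscle list, and without control 3 the 2 differences were -0.21 and -0.24. The part of muscle in the Cox8b and Cox7a1 values was not tested. Dio2, Elovl3 and Ppara had differences of 0.24, -0.45 and -0.03.

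**Figure D4:**
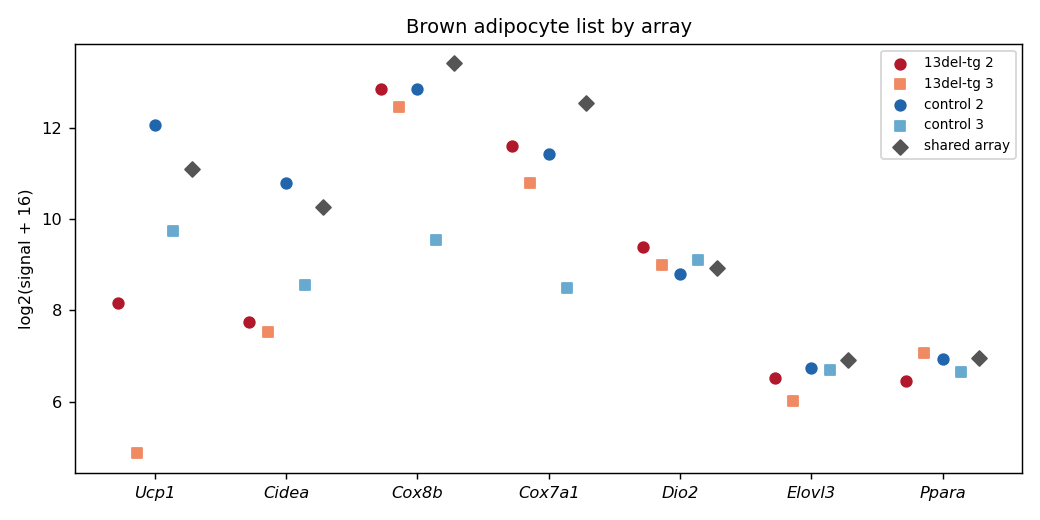
Signal of the 7 kept genes of the brown adipocyte list on the 5 distinct arrays, as log2(signal + 16), with 13del-tg 2 and 3 in red, controls 2 and 3 in blue and the shared array in grey. Ucp1 and Cidea are lower on both 13del-tg arrays than on both controls, and Cox8b and Cox7a1 are lowest on control 3.

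The label of marrow adipocytes could be checked only in part. Of 11 other listed white adipocyte markers with a probe set, 6 lay above the filter, with 2 positive and 4 negative differences and a median of -0.13. Adig, adipogenin, was the 1 kept gene of this list at an unadjusted limma p under 0.05. Its signals were 83.4 and 69.5 in 13del-tg 2 and 3 and 214.5 and 134.5 in controls 2 and 3. The Adig difference was -1.01 (SE 0.40, limma adjusted p = 0.88). Slc2a4, the insulin-responsive glucose transporter of fat and muscle, had 0.58 (SE 0.37), which was 0.17 without control 3 and 0.99 without control 2. Lep, the leptin gene of mature white fat, was dim on every array, at 6.1 and 1.8 in 13del-tg 2 and 3, 7.7 and 34.4 in controls 2 and 3, and 8.5 on the shared array. Adiponectin signal was thus clear and leptin signal was not. The brown fat transcripts Ucp1 and Cidea were lower on the 13del-tg arrays than on the control and shared arrays. Their adjusted p was 0.581 and 0.874 by limma. Of the 7 kept genes of the brown list, 3 were positive and 4 negative, with a median of -0.03. The values do not tell fat within the marrow from fat beside the bone, so the genes are called adipocyte genes here. Skin genes were mostly dim, with 4 of 11 genes of the epidermis list above the filter. Their summed signal was 926 and 886 in 13del-tg 2 and 3, 921 and 907 in controls 2 and 3, and 1095 on the shared array. Below the filter, Krt5 and Krt15 had 223.5 and 232.6 on the shared array, above the other arrays (21.9 to 46.7 and 5.2 to 96.4). The list's other genes below the filter were not highest on it.

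Of the genes of fatty acid and triglyceride synthesis, none passed the adjusted test. Of 19 measured, 4 had a positive and 15 a negative difference, with a median of -0.26, and the 13del-tg pair was wholly below the control pair for 8 and wholly above it for 1, of 3382 below and 1718 above among all genes. Acly, which makes the acetyl-CoA for lipid synthesis, had signals of 2784.6 and 2712.6 in 13del-tg 2 and 3, against 4013.8 and 4648.3 in controls 2 and 3, a difference of -0.65 (SE 0.19, unadjusted p = 0.00966, adjusted p = 0.861 by limma). The shared array had 2408.3, below both genotypes, and the Acly difference was -0.47 with the arrays centred. The next 3 genes by p were Acaca, the acetyl-CoA carboxylase (-0.57, SE 0.25), Pcx, pyruvate carboxylase (-0.69, SE 0.33), and Dgat2, which completes triglycerides (-0.57, SE 0.27), none at an unadjusted p under 0.05. With 1 array left out, Pcx ran from -0.93 without 13del-tg 3 to -0.46 without 13del-tg 2, and Dgat2 from -0.78 without control 3 to -0.37 without control 2. Fasn, the fatty acid synthase, overlapped between genotypes, at 1110.3 and 1017.8 in 13del-tg 2 and 3, against 1017.7 and 1099.3 in controls 2 and 3.

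Lipid droplet and lipolysis genes had 5 positive and 12 negative differences among 17, with a median of -0.21. Besides Cidea, Fitm1, a fat-storage protein mainly of muscle, was the 1 gene with an unadjusted p under 0.05, at 1.53 (SE 0.43), from signals of 1788.6 and 1606.2 in 13del-tg 2 and 3, against 969.5 and 338.3 in controls 2 and 3. Fitm1 was lowest on control 3, as was the muscle list, and highest on the shared array, at 3077.3. The part of muscle in the Fitm1 values was not tested. With 1 array left out, Fitm1 ran from 0.80 without control 3 to 2.27 without control 2. Mgll, the monoglyceride lipase, had -0.36 (SE 0.23), which was -0.62 without 13del-tg 2 but -0.09 with 13del-tg 3 left out, and Lipe, the hormone-sensitive lipase, had -0.54 (SE 0.44). The Lipe signals were 360.4 and 144.8 in 13del-tg 2 and 3, 403.5 and 290.5 in controls 2 and 3, so it was low on 13del-tg 3 alone, and without that array the difference was 0.070.

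Genes of fatty acid uptake had 5 positive and 6 negative differences among 11, with a median of -0.05. Gpihbp1, which holds lipoprotein lipase on the capillary wall, had signals of 2187.9 and 2486.4 in 13del-tg 2 and 3, 1799 and 1566.8 in controls 2 and 3. The difference was 0.47 (SE 0.21) with an unadjusted limma p of 0.0527. The shared array, at 2192.3, lay between the 13del-tg arrays and above both controls. Fabp3, the fatty acid binding protein of muscle, had 1.30 (SE 0.71) and was low on control 3, and without that array its difference was -0.036.

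Adipogenic regulators beside the members had 9 positive and 9 negative differences among 18, with a median of 0.00. Gata2, a factor of fat and blood precursors, had -0.65 (SE 0.29). Its signals were 217.8 and 259.7 in 13del-tg 2 and 3, against 357.1 and 407.8 in controls 2 and 3. The shared array, at 243.9, lay between the 13del-tg arrays and below both controls. The 7 kept genes of the erythroid list, such as Klf1, were all negative with a median of -2.21, and none was at 0. Their part in the Gata2 value was not tested. Dlk1, the preadipocyte protein that restrains fat formation and is also made in young muscle, had 1.19 (SE 0.67) and overlapping groups, at 14775.2 and 5650.4 in 13del-tg 2 and 3, against 8572.3 and 1856.7 in controls 2 and 3, and without control 3 the difference was 0.09. Without control 2, which leaves control 3 as the 1 control array, 5 of the named list genes passed the limma test as higher: Dlk1 (2.29, adjusted p = 0.0443), Fitm1 (2.27, adjusted p = 0.00518), Fabp3 (2.64, adjusted p = 0.00189), Cox8b (3.10, adjusted p = 0.000525) and Cox7a1 (2.70, adjusted p = 0.00455).

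Adipokines and their receptors had 6 positive and 6 negative differences among 12, with a median of -0.01. Lcn2, lipocalin-2, also a neutrophil granule gene, had -0.87 (SE 0.39), and Rbp4, the retinol carrier, -0.42 (SE 0.25). With 1 array left out, Lcn2 ran from -1.47 without 13del-tg 3 to -0.27 without 13del-tg 2, and Rbp4 from -0.63 to -0.21 with the same arrays left out. The list of stromal precursors of marrow fat had 4 positive and 8 negative differences among 12, with a median of -0.12. Its leading gene was Esm1, a secreted proteoglycan core protein, at 1.52 (SE 0.35, unadjusted p = 0.00238, adjusted p = 0.581 by limma). Esm1 had signals of 318.4 and 392.2 in 13del-tg 2 and 3, against 138.7 and 91.1 in controls 2 and 3. The shared array, at 294.5, lay above both controls and below both 13del-tg arrays. Cxcl12, the chemokine of marrow stromal cells, had -0.41 (SE 0.22), which was -0.63 without 13del-tg 3 but -0.20 with 13del-tg 2 left out, and Lepr, the leptin receptor that marks these cells, had signals of 807 and 1244.8 in 13del-tg 2 and 3, against 689.3 and 1146.2 in controls 2 and 3.

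**Figure D5:**
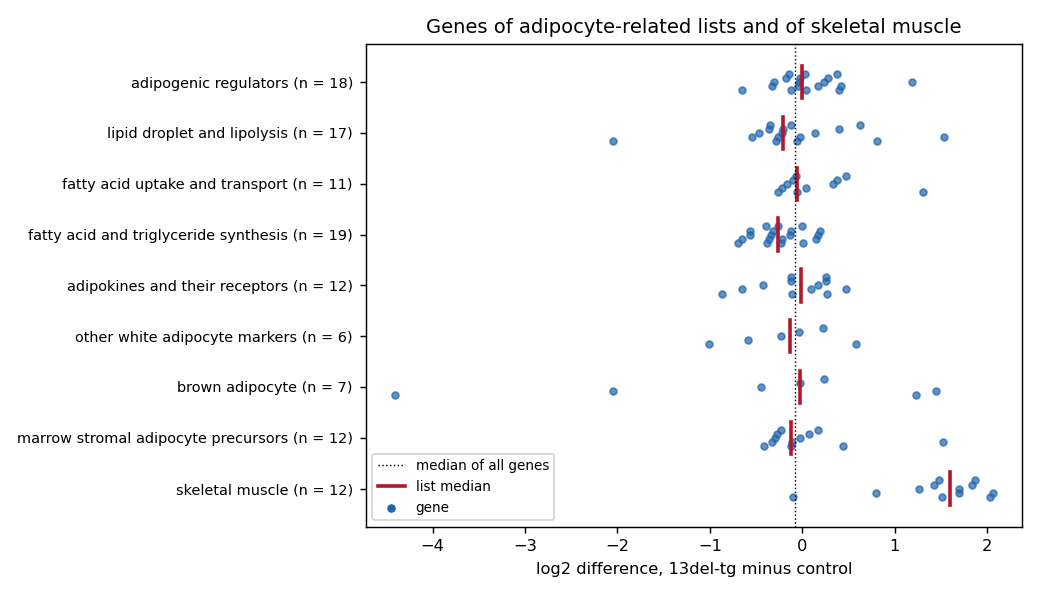
Log2 difference, 13del-tg minus control, of each kept gene (points) in the adipocyte-related lists and in the skeletal muscle list, with the list median (red bar) and the median of all genes (dotted line). The medians of the 8 adipocyte-related lists lie between -0.26 and 0.00, and that of the muscle list is 1.60.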

How the data were processed

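Gene expression was measured in calvaria of 10-day-old mice on Affymetrix arrays. The authors deposited linear intensities for each probe set, made with MAS5 per the submitters' processing notes. The MAS5 version is not given in the sources used here. Their trimmed mean (2% left out at each end) was 500.003 on every array. No detection calls were used.

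Intensities were transformed as log2(signal + 16). The 64 control probe sets were left out, and 27022 probe sets were kept whose mean over the 5 distinct arrays reached the 40th percentile, which was 6.28 (signal 61.9). Dim members have values from a fit without this filter. Symbols came from the platform annotation, with 1 symbol for 34945 probe sets. 13del-tg 2 and 3 were set against controls 2 and 3 by two-sided limma tests (limma 3.58.1 under R 4.3.3) using eBayes with an intensity trend, and p-values were adjusted over all kept probe sets by Benjamini-Hochberg. The fit had 2 residual and 6.01 prior degrees of freedom. Intervals are 95%. The code was tested on simulated data. The labels call the replicates biological.

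The members and lists were chosen with earlier results of these data known. Named are all member probe sets, up to 4 genes of each list with the smallest unadjusted p, the 5 genes nearest to Adipoq in profile, and Col10a1 and Xist as checks. Fasn, Lepr, Lep, Otop1, Dio2, Elovl3, Ppara, Krt5, Krt15 and Eif2s3y were named outside this rule, after their values were seen. Mpo, Elane, Acta1, Ckm and Klf1 were named as examples of their lists. The alternatives tried were other pseudocounts, filters, normalizations and variance models, 1 probe set per gene, a replicate block, leaving out each array, and counting the shared array as either genotype or both.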

Additional observations from a re-analysis of the deposited data

Results flagged for a closer look

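The shared array, which the comparison did not use, had a higher signal than both controls for 4 of the 11 kept member probe sets: Adipoq, at 2029.3, Fabp4 (1451263_a_at), at 2232.8, Fabp4 (1424155_at), at 188.9, and Lpl (1431056_a_at), at 2693.7. It was also above both 13del-tg arrays for these 4. Of all 27022 kept probe sets, 36% were higher on it than on both controls, so a share of 36.4% of the members is near that of all probe sets.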

How the results depend on the processing

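No member passed the adjusted threshold in any of the alternatives run, where the adjusted p of members ran from 0.33 to 1. Of 178 member differences recomputed, 160 kept their direction and 18 changed it. Without 1 array, the sign changed in at least 1 case for Fabp4 1417023_a_at (-0.38 to 0.83), 1451263_a_at (-0.43 to 1.01), 1425809_at (-0.67 to 0.16) and 1424155_at (-0.32 to 0.22), for Lpl 1415904_at (-0.18 to 0.55) and 1431056_a_at (-0.34 to 0.67), and for Scd1 1415965_at (-0.29 to 0.30), and likewise for Lipe (-1.16 to 0.070), Fabp3 (-0.036 to 2.64), Cox8b (-0.21 to 3.10) and Cox7a1 (-0.24 to 2.70). With 1 array left out, the member median ran from -0.32 (without control 3) to 0.033, and the members at an unadjusted p under 0.05 from 0 to 2 higher. The member median was 0.16 with the 60th percentile filter, 0.13 with centring and -0.15 with 1 probe set per gene. Other sign changes were Scd1 1415965_at with a pseudocount of 64 (-0.0015) and with the shared array as 13del-tg (-0.29), Scd1 1415964_at with arrays centred (0.083) and with the shared array as a control (0.078), Fabp4 1424155_at with quantile normalization (0.15), centring (0.13) and the shared array as 13del-tg (0.29), and, with the shared array as a control, Lpl 1431056_a_at (-0.089) and Fabp4 1451263_a_at (-0.093). The cause was not tested.

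Over all probe sets, 2 were higher and 8 lower past the threshold. These counts were 1 and 1 with a pseudocount of 1, a 60th percentile filter or quantile normalization, 1 and 0 with no filter, without the trend or with the shared array as a control, 2 and 5 with a pseudocount of 64, 3 and 21 with centring, 2 and 18 with robust eBayes, 0 and 8 with the shared array as 13del-tg and 0 and 0 with it under both labels, when Col10a1 no longer passed. Leaving out 1 array gave 1 to 199 higher and 5 to 43 lower.

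With the replicate number as a block the counts were 330 and 338, from 1 residual degree of freedom; among the named list genes Dlk1, Fitm1, Fabp3, Cox8b, Cox7a1 and Esm1 passed as higher and Ucp1, Cidea and Lcn2 as lower, and no member passed. Deviations of same-numbered arrays correlated at 0.216 over probe sets, and the labels do not say that the numbers pair animals. Outside the block, Ucp1, Esm1 and Lcn2 passed in none of the alternatives, and Cidea in 1, without control 3. Signals below the filter, those of Retn and Cidec, limit these 2 genes most, with SE of 0.71 and 0.66.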
